A study of Mus musculus with 4 samples.

Results

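The comparison described here is heme against control diet in crypt cells of the mouse colon. Heme is the iron-containing pigment of red meat, and crypts are the pits of the colon lining in which its cells divide. The mice were male C57BL/6 animals, 11 weeks old, on a diet rich in fat (40% of energy) and poor in calcium, and they ate it for 14 days, either as such or with heme added at 0.5 µmol per g. Crypt cells and surface cells were taken from frozen colon rolls by laser capture microdissection, and 100 ng of RNA of each pool was labelled. The control crypt pool held RNA of 4 mice and the heme crypt pool RNA of 3 mice, and each pool was read on 1 array. A gene's value is the log2 expression (RMA) averaged over its probe sets with a single gene symbol, and its difference is the heme crypt value minus the control crypt value. The genes described are those with at least 1 crypt value at or above 5.75, which is the median over every gene value of the 4 arrays and is called the floor. They number 10491 of 19938 measured genes. With 1 pool a side there is no spread between mice to set a difference against, and no test was run. A gene is called or counted as higher or lower on heme where it differed at least 2-fold (1 on the log2 scale), which is a rule of size. The gene lists used below were chosen with earlier results of these data known, so their counts are no independent evidence of a direction.

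The colon epithelium is a single layer that is renewed from stem cells at the crypt base. Their offspring divide while they move up the crypt, then stop dividing, mature into absorptive colonocytes, mucus-producing goblet cells and rarer secretory cells, and are shed at the surface. Heme in the lumen is known to damage surface cells, and heme and the oxidants it generates are known to induce heme oxygenase and the NRF2 programme, a set of antioxidant and detoxification genes. Passage from DNA synthesis into mitosis is known to follow waves of transcription, driven by E2F factors before replication and by B-MYB and FOXM1 before mitosis.

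Of the 10491 genes, 187 (1.78%) were higher in the heme crypt pool and 125 (1.19%) were lower. These shares of all genes are the ones to set beside the list counts that follow. At least 3-fold differences were found for 32 genes (0.305%) on the heme side and 15 (0.143%) on the control side. Most genes differed little, with a median of 0.01, quartiles of -0.20 and 0.22, and 8838 genes (84.2%) within 0.5 of 0. In all, 5405 genes (51.5%) were above 0 and 5080 (48.4%) below it. The differences ran from -4.05 to 2.55. On either side of the size rule stood the checkpoint gene Clspn, at 6.03 and 7.03 on the control and heme arrays and just inside, and Tnip3, at 6.80 and 7.80 and just outside. At the lower end, the G1 kinase gene Cdk6, at 9.78 and 8.78, was just inside, and Cmtm8, at 6.36 and 5.36, just outside. The floor lay between Krtap10-10, whose control value rounds to 5.76, and Kbtbd11, at 5.75. When the arrays were centred on 53 cytosolic ribosomal protein genes, whose median level was 10.9 in the control and 10.7 in the heme crypt pool, the median difference of all genes moved from 0.01 to 0.21 and the split became 328 higher and 59 lower.

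**Figure D1:**
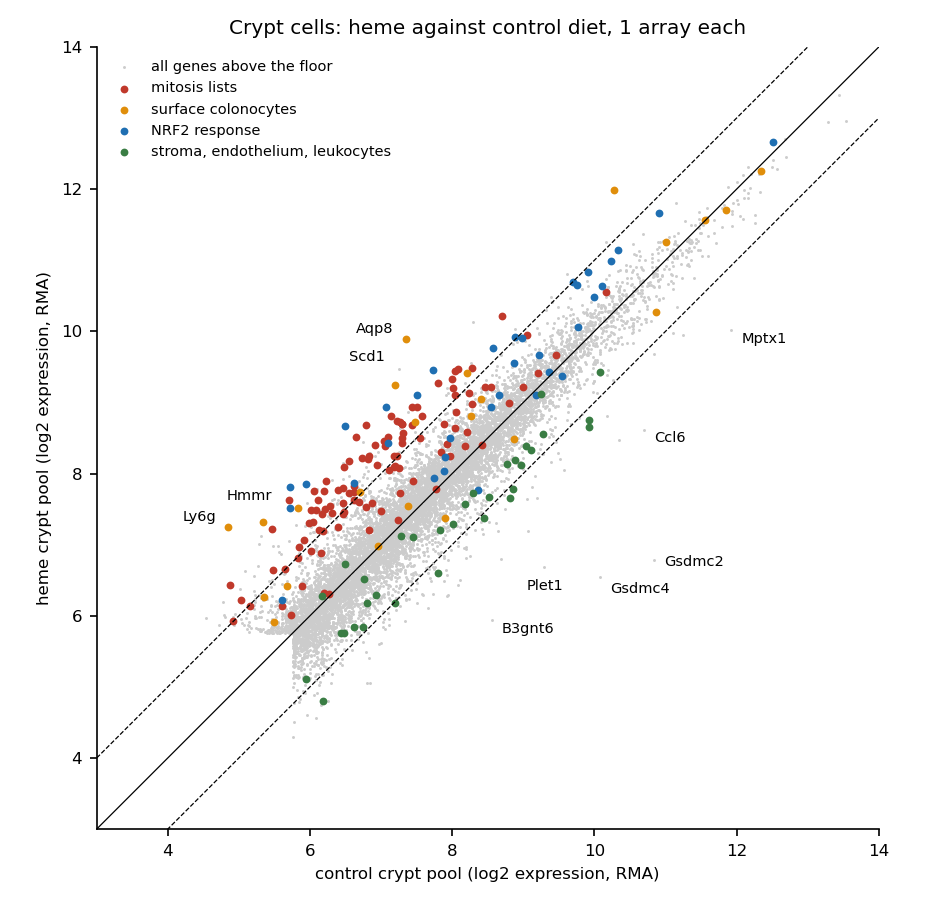
Log2 expression of each gene above the floor in the control crypt pool (horizontal axis) and the heme crypt pool (vertical axis), 1 array each. The solid line marks equal values and the dashed lines a 2-fold difference; mitosis genes (red) lie mostly above the diagonal, and Gsdmc2 and Gsdmc4 lie farthest below it, at -4.05 and -3.52.

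Markers of the labelled cell type were present in both crypt pools. Lgr5, the receptor gene that marks crypt base stem cells, was at 7.75 in control crypt and 6.69 in heme crypt, against 4.76 and 5.55 in the surface pools. Pan-epithelial genes such as those of keratins and junction proteins had a median difference of -0.01 over 10 genes, with 5 of them above 0 (a median of 0.20 after ribosomal protein centring), and their summed linear level was 18120 in control and 17240 in heme crypt. Epcam, the epithelial adhesion gene, was at 11.31 and 10.93. The levels of these genes were thus close in both pools.

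Genes of the tissue around the crypts had lower values in the heme crypt pool. All 15 smooth muscle and fibroblast markers were above the floor and below 0, with a median of -0.72, and their summed linear level was 7262 in control and 4063 in heme crypt. The intermediate filament gene Vim was at 9.92 and 8.65, the matrix genes Dcn at 9.92 and 8.75, Fn1 at 8.81 and 7.65, and Lum at 6.19 and 4.80. These 4 were lower by the size rule, and 2 remained so after ribosomal protein centring. All 7 endothelial markers above the floor were below 0 as well, with a median of -0.68 and summed levels of 956.5 and 596.4. Cd34, at 7.80 and 6.60, was the member past the size rule. Of 11 leukocyte markers above the floor, 9 were below 0, with a median of -0.63 and summed levels of 3227 and 2197. The antigen presentation genes H2-Aa (8.45 and 7.37) and H2-Ab1 (8.86 and 7.78) and the macrophage receptor gene Csf1r (7.20 and 6.19) were lower. The defining T and B cell genes Cd3e, Cd3g, Cd4, Cd8a and Cd79a were below the floor on both crypt arrays. None of the 4 leukocyte and endothelial genes was 2-fold lower after ribosomal protein centring. All 5 measured nerve and glia genes, and the red cell gene Alas2, were below the floor. The part of these markers in the results that follow was not tested. In pooled tissue, fewer cells of a type and less RNA per cell cannot be told apart.

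The genes with the largest differences came from a few kinds of cell function. On the heme side stood genes of mature absorptive cells, of the NRF2 response, of lipid synthesis and of mitosis. Among genes with a probe set of their own, the largest difference belonged to the water channel gene Aqp8, at 7.34 in control crypt and 9.90 in heme crypt, a 5.87-fold difference. Ly6g was at 4.85 and 7.25, the fatty acid desaturase gene Scd1 at 7.25 and 9.47, and the carbonyl reductase gene Cbr3 at 6.49 and 8.68. The metallothionein gene Mt2, whose protein binds zinc and other metals, was at 8.29 and 10.14, and the heme oxygenase gene Hmox1 was at 5.31 and 7.12. Hmmr, which encodes a spindle-associated protein, was at 5.70 and 7.63, and the mitotic kinase gene Pbk was at 6.79 and 8.68.

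On the control side the differences were larger at the very top. Gsdmc2 was at 10.84 in control crypt and 6.78 in heme crypt, a 16.6-fold difference, and Gsdmc4 was at 10.07 and 6.55, an 11.5-fold difference. Both encode gasdermins, a family of pore-forming proteins known for cell lysis and secretion. B3gnt6, which builds the core 3 branch of mucin O-glycans, was at 8.55 and 5.94, and Plet1, an epithelial surface protein gene, at 9.29 and 6.69. Further down came the chemokine gene Ccl6 at 10.70 and 8.61 and the pentraxin gene Mptx1 at 11.93 and 10.01. The matrix genes Aspn (7.93 and 6.28) and Col8a1 (7.66 and 6.10), the carbonic anhydrase-related gene Car8 (7.94 and 6.30), A4gnt (8.08 and 6.44), whose enzyme caps mucin glycans, and Fgl2 (8.11 and 6.50) completed the 15 lowest values together with genes described further on. The lower of the crypt values was below the floor for 37 of the 187 higher genes and 33 of the 125 lower genes, and the size of such a difference is uncertain. With 32 added to the linear values before the log, the counts were 106 higher and 52 lower.

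**Figure D2:**
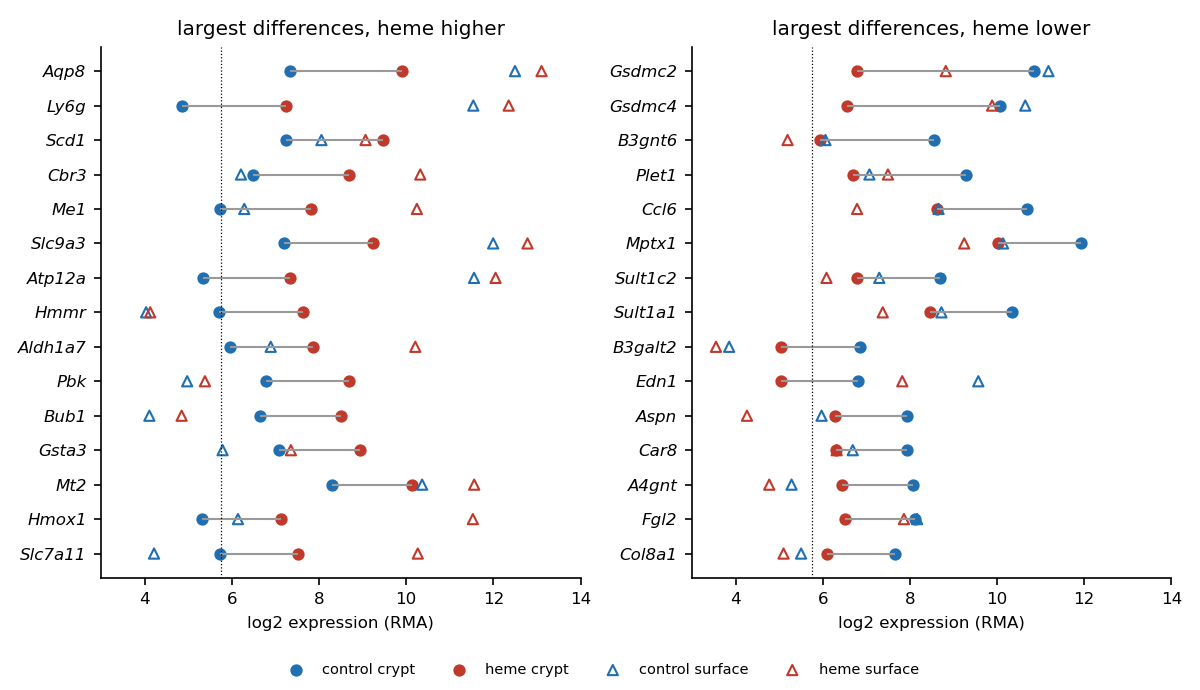
Log2 expression on all 4 arrays of the 15 genes with the largest difference each way between the crypt pools. Filled circles are crypt pools joined by a line, open triangles are surface pools, blue is control and red is heme, and the dotted line is the floor of 5.75; Aqp8 heads the left panel at 7.34 and 9.90, and Gsdmc2 the right panel at 10.84 and 6.78.

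Genes of dividing cells made up the most numerous group on the heme side. Of the 187 higher genes, 79 (42.2%) belonged to 10 lists of cell cycle genes, 31 to other lists and 77 to none. The 10 lists held 212 genes above the floor, of which 79 (37.3%) were higher and 1 (0.472%) lower, against 1.78% and 1.19% of all genes. The median of the 212 was 0.83, against 0.01 over all genes. Their summed linear level was 42520 in control and 67530 in heme crypt, a ratio of 1.59, and 17380 and 18590 in the surface pools, a ratio of 1.07. With 32 added to the linear values, 49 genes of these lists were higher, and with ribosomal protein centring 113.

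The differences were uneven along the cell cycle. Among 20 regulators of the G1 to S transition, 15 were above 0, with a median of 0.38. The cyclin gene Ccne1, which drives entry into S phase, was at 6.42 and 7.79, and E2f8, a repressive E2F gene induced in S phase, at 7.25 and 8.30. These were the 2 members past the size rule on the heme side. Of the genes that act in early G1, Cdk6 was at 9.78 and 8.78, short of the rule after ribosomal protein centring, cyclic loess or the addition of 32. Its partner genes Ccnd1, Ccnd2 and Ccnd3, which encode the D cyclins, were at 9.62 and 9.15, at 10.83 and 10.80, and at 6.30 and 6.34. Cdk4 was at 10.36 and 10.64, and the growth factor-responsive gene Myc at 8.80 and 8.56. Of 8 inhibitors of cyclin-dependent kinases and antiproliferative genes, none passed the size rule and the median was 0.09. Cdkn2c, an inhibitor of CDK4 and CDK6, had the highest difference of these at 0.86, and Cdkn1b, which encodes p27, the lowest at -0.36. Cdkn1a, which encodes p21, had no probe set of its own and is not in these counts. A probe set listed for several symbols, a member of this list among them, was higher on heme by 1.11, and which gene it reads cannot be told.

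Genes of DNA replication had modest differences in 1 direction. Of 23 licensing and initiation genes, 22 were above 0 (median 0.62), as were all 25 replication fork genes (median 0.68) and 17 of 18 nucleotide synthesis genes (median 0.44). Few passed the size rule. Dbf4, the activating subunit of the kinase that fires origins, was at 6.75 and 8.20, the GINS subunit gene Gins3 at 5.22 and 6.29, and the flap nuclease gene Fen1 at 6.47 and 7.53. The ribonucleotide reductase gene Rrm2, which makes deoxyribonucleotides, was at 6.74 and 8.45, and its partner Rrm1 at 8.85 and 9.83, just short of the rule. The helicase subunits lay between 0.40 for Mcm6 and 1.00 for Mcm5, and Mcm5, at 7.98 and 8.98, was marginally short of 2-fold. Pcna, the sliding clamp gene, was at 9.70 and 10.24. The thymidine kinase gene Tk1 had a mean difference of 1.01, but its probe sets gave 0.65 and 1.37. Ribosomal protein centring raised the counts past the rule to 6 licensing, 7 fork and 5 nucleotide synthesis genes.

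Genes of recombination repair and replication checkpoints had a higher median than the replication lists, though the difference between lists was not tested. Of 15 genes above the floor, 14 were above 0, 7 were higher and the median was 0.90. The helicase gene Blm was at 5.71 and 7.04, Fancd2 at 5.57 and 6.90 and Fanca at 6.34 and 7.64, the last 2 being genes of the Fanconi anemia pathway for crosslink repair. Brca1 was at 6.00 and 7.17, the recombination gene Rad54l at 6.75 and 7.96, and the exonuclease gene Exo1 at 6.25 and 7.40. Of the damage kinase genes, Chek2 differed by 0.88, Chek1 by 0.51, Atr by 0.45 and Atm by -0.30. With 32 added to the linear values, 2 of the 15 were past the rule.

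The lists of mitotic entry, spindle and kinetochore genes had the highest medians of the cell cycle lists. Over all 5 mitosis lists, with 111 genes above the floor, 65 (58.6%) were higher, none was lower and 109 were above 0. Over all genes, 1.78% were higher, 1.19% were lower and 51.5% were above 0. The median difference of the 111 mitosis genes was 1.13, or 2.19-fold. Summed over all measured members, the linear level was 18770 in control and 36230 in heme crypt (a ratio of 1.93), against a ratio of 1.12 in surface cells. With 32 added to the linear values, 44 were past the rule, and after ribosomal protein centring 82 were.

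Regulators of entry into mitosis had a median of 1.37, with 14 of 19 higher and all 19 above 0. Cdk1, the kinase that starts mitosis, was at 7.80 and 9.27, its partner cyclin genes Ccna2 at 8.71 and 10.22 and Ccnb2 at 8.08 and 9.47, and its activating phosphatase gene Cdc25c at 5.46 and 7.21. The Aurora and Polo kinase genes followed, with Aurka at 7.09 and 8.51, Aurkb at 7.58 and 8.81 and Plk1 at 8.28 and 9.49. The transcription factor gene Foxm1 was at 6.40 and 7.77. Genes that hold CDK1 back had small differences, with Wee1 at 8.80 and 8.99 and the kinase gene Pkmyt1 at a difference of 0.46. The E2F target Mybl2, which encodes B-MYB, was at 6.83 and 7.21.

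The kinetochore links chromosomes to spindle fibres, and its checkpoint holds cells until all are attached. The 30 such genes had a median of 1.10, with all 30 above 0 and 17 of them higher. Bub1 was at 6.65 and 8.51, Ska3 at 6.06 and 7.75, Nuf2 at 6.55 and 8.17 and the checkpoint kinase gene Ttk at 6.02 and 7.49. Ndc80, which works in one complex with Nuf2, was at 5.73 and 6.02, a level at the floor on the control array. With 32 added to the linear values 10 of the 30 passed the rule.

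Spindle and cytokinesis genes had a median of 1.27, with 23 of 29 higher and all 29 above 0. Besides Hmmr, the survivin gene Birc5 was at 6.22 and 7.90, the kinesin genes Kif20a at 6.48 and 8.09, Kif11 at 7.50 and 8.94 and Kif2c at 6.82 and 8.21, and the midzone gene Prc1 at 7.27 and 8.72. Of 17 chromosome condensation and cohesion genes, all were above 0, 7 were higher and the median was 0.89. The condensin genes Ncapg (7.30 and 8.70), Smc2 (7.30 and 8.69) and Ncaph (7.06 and 8.39) were past the rule, as was the cohesin protector Cdca5 (6.19 and 7.76). The core cohesin genes Smc1a (9.46 and 9.66), Smc3 (9.00 and 9.22) and Rad21 (10.17 and 10.55), which also act outside mitosis, had small differences. Mki67, the gene of the proliferation marker Ki-67, was at 9.05 and 9.95. Top2a had a mean of 0.73 from probe sets at 0.43 (3.38 and 3.80, both below the floor) and 1.04 (8.93 and 9.97).

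Of 16 genes of mitotic exit, 4 were higher and the median was 0.43. These were Cdc20 at 7.07 and 8.43, Cdkn3 at 6.08 and 7.48, Cks2 at 6.46 and 7.58 and Cks1b at 6.62 and 7.63. Ube2c, the gene of an E2 enzyme of the anaphase-promoting complex, was at 5.83 and 6.81, the gene of its inhibitor EMI1, Fbxo5, at 7.19 and 8.11, and Ube2s at 8.46 and 9.21, all short of the rule. The subunit genes of the complex on this list ran from -0.01 for Anapc4 to 0.37 for Cdc27. Genes of ribosome biogenesis, which accompany cell growth, had a median of 0.25, with 16 of 18 above 0 and none past the rule.

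**Figure D3:**
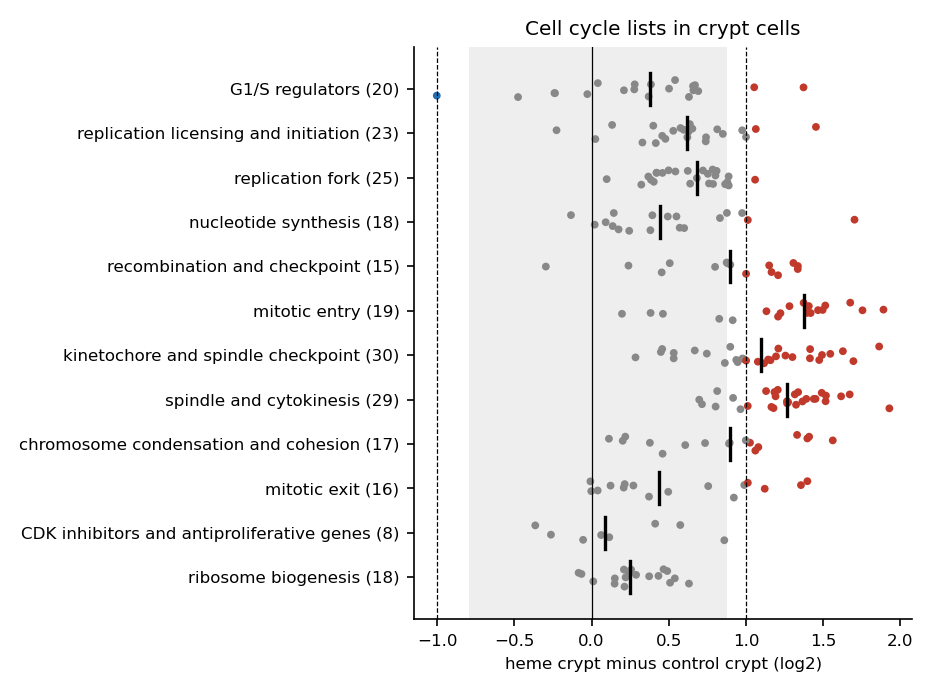
Difference between the heme and control crypt pools (log2) for each gene above the floor in the 10 cell cycle lists and 2 related lists, with the number of genes in brackets. Red and blue points are at least 2-fold higher and lower, black bars are list medians, and grey shading spans the central 95% of all genes, from -0.79 to 0.88; the medians run from 0.09 for the CDK inhibitors to 1.37 for mitotic entry.

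Promoters of genes that had similar differences are shown with short motifs marked. The windows are the 250 bases before the RefSeq transcription start on GRCm38.p6, and motifs were searched on both strands. CHR (TTTGAA) is the cell cycle genes homology region, known as a site for the complexes that time mitotic genes. The CCAAT box (CCAAT) is known to bind NF-Y. ARE (TGACNNNGC) is the core of the antioxidant response element that NRF2 binds. Of 95 mitosis genes with a window, 31 (32.6%) held a CHR match, 59 (62.1%) a CCAAT match and 23 (24.2%) both, against 18.3%, 37.5% and 6.45% of all 27025 genes with a window. Of 74 replication and repair genes, 10 (13.5%) held a CHR and 41 (55.4%) a CCAAT match. All 16 cholesterol synthesis genes with a window (100.0%) held a CCAAT match. Of 35 NRF2 genes, 8 (22.9%) held an ARE match, against 11.5% of all genes. These shares describe letters only, and some genes have more than 1 window.

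The windows below are 4 mitosis genes, 2 cholesterol synthesis genes and 1 NRF2 gene, all with values given in the text. Only genes with 1 window were taken. Hmmr had the largest difference of such mitosis genes, and Ska3, Cdca5 and Cdk1 were the next that held a CHR match. Idi1 and Nsdhl had the largest cholesterol synthesis differences. Gsta3 had the largest difference of such NRF2 genes with an ARE match. Windows picked for a match do not show how common it is. Capitals mark CHR and CCAAT matches, which read TTCAAA and ATTGG when on the opposite strand, except in Gsta3, where they mark the ARE match alone. The marked matches do not overlap each other. Hmmr (chr11:40733438-40733687, minus strand) held 5 CCAAT matches and no CHR, Ska3 (chr14:57826164-57826413, minus strand) 1 CHR ending 9 bases before the start, and Cdca5 (chr19:6084847-6085096, plus strand) 2 CHR matches within 17 bases of it. Cdk1 (chr10:69352913-69353162, minus strand) held 2 CHR and 3 CCAAT matches. Idi1 (chr13:8885356-8885605, plus strand) and Nsdhl (chrX:72918271-72918520, plus strand) held 2 CCAAT matches each. The Gsta3 window is chr1:21240335-21240584 on the plus strand.
Hmmr: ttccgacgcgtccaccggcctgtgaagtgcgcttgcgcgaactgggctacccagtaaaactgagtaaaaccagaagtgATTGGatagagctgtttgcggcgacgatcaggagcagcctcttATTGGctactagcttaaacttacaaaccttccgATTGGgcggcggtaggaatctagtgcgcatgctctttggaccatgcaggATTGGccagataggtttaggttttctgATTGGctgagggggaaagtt
Ska3: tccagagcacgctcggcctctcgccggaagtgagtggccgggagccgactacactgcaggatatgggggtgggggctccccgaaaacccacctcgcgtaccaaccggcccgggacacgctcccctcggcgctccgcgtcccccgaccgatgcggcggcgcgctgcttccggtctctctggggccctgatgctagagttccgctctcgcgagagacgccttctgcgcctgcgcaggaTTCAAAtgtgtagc
Cdca5: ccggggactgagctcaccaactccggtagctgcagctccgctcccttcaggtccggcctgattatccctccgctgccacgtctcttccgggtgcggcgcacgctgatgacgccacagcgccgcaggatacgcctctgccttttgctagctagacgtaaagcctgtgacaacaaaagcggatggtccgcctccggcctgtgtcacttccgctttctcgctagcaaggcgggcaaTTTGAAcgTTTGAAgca
Cdk1: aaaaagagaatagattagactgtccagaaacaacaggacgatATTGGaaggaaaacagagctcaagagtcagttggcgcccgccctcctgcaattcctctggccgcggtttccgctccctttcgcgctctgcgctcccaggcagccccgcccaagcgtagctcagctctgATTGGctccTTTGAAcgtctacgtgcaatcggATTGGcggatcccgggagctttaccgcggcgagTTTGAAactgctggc
Idi1: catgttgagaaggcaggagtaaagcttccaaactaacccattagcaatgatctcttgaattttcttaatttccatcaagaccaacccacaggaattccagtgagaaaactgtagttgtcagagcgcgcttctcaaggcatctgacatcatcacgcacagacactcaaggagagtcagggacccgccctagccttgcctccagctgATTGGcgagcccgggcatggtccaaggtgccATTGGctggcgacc
Nsdhl: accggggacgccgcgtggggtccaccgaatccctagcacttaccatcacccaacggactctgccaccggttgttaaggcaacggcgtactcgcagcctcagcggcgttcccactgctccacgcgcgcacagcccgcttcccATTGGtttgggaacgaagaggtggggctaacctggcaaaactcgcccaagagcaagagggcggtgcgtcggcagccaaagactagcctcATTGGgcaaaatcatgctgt
Gsta3: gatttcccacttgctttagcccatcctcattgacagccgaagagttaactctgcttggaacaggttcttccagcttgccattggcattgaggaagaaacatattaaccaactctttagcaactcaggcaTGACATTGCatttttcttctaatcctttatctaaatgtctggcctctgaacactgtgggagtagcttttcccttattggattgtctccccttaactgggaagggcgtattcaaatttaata

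Markers of mature surface colonocytes were higher in the heme crypt pool for part of the list. Of 23 above the floor, 9 (39.1%) were higher, against 1.78% of all genes. None was lower and 18 were above 0, with a median of 0.65. The members were chosen with earlier results of these data known, so these counts are no independent evidence of a direction. After Aqp8 and Ly6g came the sodium-proton exchanger gene Slc9a3, at 7.20 and 9.24, the proton pump gene Atp12a at 5.34 and 7.32 and the carbonic anhydrase gene Car1 at 10.28 and 11.98. Tmigd1 was at 5.83 and 7.51, the keratin gene Krt20 at 7.47 and 8.73, the chloride exchanger gene Slc26a3 at 8.20 and 9.42 and Clca4a at 6.70 and 7.74. In the heme surface pool the levels of the same genes were 13.11 for Aqp8, 12.78 for Slc9a3, 12.05 for Atp12a and 12.53 for Krt20, so each was still far lower in heme crypt than in heme surface cells.

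Other members of that list had small differences or values on the other side. The transmembrane mucin gene Muc3 was at 12.35 and 12.26, Ceacam1 at 11.85 and 11.71 and Lypd8 at 11.56 and 11.57. The guanylin genes, whose peptides drive fluid secretion, were below 0, with Guca2a at 10.87 and 10.28 and Guca2b at 7.90 and 7.38. In surface cells the same 23 genes had a median heme minus control difference of 0.14, and 5 were higher and none lower. Their median level there was 11.72 on control and 12.35 on heme. The labels do not say how many surface cells each crypt pool held, and their part in these values was not tested.

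Crypt base stem cell markers lay mostly below 0. Of 16 above the floor, 3 were above 0, with a median of -0.36. Lgr5 (7.75 and 6.69) was the member lower by the size rule, and it fell short of the rule with ribosomal protein centring, with cyclic loess and with 32 added to the linear values. Rnf43, a WNT feedback gene, was at 8.47 and 7.62 and the stem cell factor gene Ascl2 at 6.43 and 5.64. Other markers had smaller differences, with Axin2 at 8.09 and 7.80, Lrig1 at 9.69 and 9.37, and Smoc2 at 7.78 and 7.81. Hopx, at 7.85 and 8.21, had the highest difference of those above the floor. WNT pathway genes had a median of -0.24, with 1 of 9 above 0 and none past the rule. The stroma-expressed WNT inhibitor gene Sfrp1 was the lowest of these, at 7.15 and 6.29.

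Lists of secretory cell genes also had medians below 0. The 5 markers of deep crypt secretory cells, the colon's counterpart of Paneth cells, were all below 0 (median -0.46). The receptor kinase gene Kit was at 9.82 and 8.84 and Creb3l4 at 8.78 and 7.93, while Reg4 was at 11.11 and 11.07. Of 8 goblet cell markers, 7 were below 0 (median -0.47). Muc2, the gene of the main gel-forming mucin, was at 13.54 and 12.96, Clca1 at 11.16 and 10.34 and the trefoil factor gene Tff3 at 10.31 and 9.83. None of these passed the size rule. The goblet cell transcription factor gene Spdef was at 9.63 and 8.87 and Atoh1, which commits cells to the secretory lineage, at 10.55 and 10.07. The median of the Notch and lineage list was -0.09, and it became 0.11 with ribosomal protein centring. Neurog3, the factor that starts enteroendocrine differentiation, stood on the other side, at 4.54 and 5.97, with its control value below the floor. With 32 added to the linear values it differed by 0.78.

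Enzymes of mucin glycan synthesis included some of the largest negative differences. Of 29 above the floor, 3 were lower, none was higher and 6 were above 0, with a median of -0.28. B3gnt6 (8.55 and 5.94) was followed by the galactosyltransferase gene B3galt2, at 6.85 and 5.05, and Gcnt3, which makes core 2 and core 4 branches, at 9.40 and 8.16. In the surface pools Gcnt3 was at 10.27 on control and 10.99 on heme, and B3gnt6 was at 6.06 and 5.19. The Galnt genes of this list, whose enzymes add the sugar that begins an O-glycan, ran from -0.59 for Galnt5 to 0.15 for Galnt1. C1galt1, which extends that sugar to core 1, was at 10.60 and 10.20. Each of the 6 other ways of processing also gave 3 lower genes and none higher. The surface median of the same 29 genes was 0.27.

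Enteroendocrine markers had a median of -0.29 over 9 genes, which became 0.03 when the floor was removed. The chromogranin genes Chga and Chgb were at 8.03 and 7.30 and at 8.13 and 7.46. Of the peptide hormone genes, Pyy was at 9.53 and 10.02, Insl5 at 9.75 and 9.81 and Sst at 6.43 and 5.91, and Gcg differed by -0.29. All 6 tuft cell markers above the floor were below 0, with a median of -0.58. Rgs13 was at 6.05 and 4.88 and Dclk1 at 7.21 and 6.25, and the surface median of these genes was -1.12. Rgs13, the member past the rule, differed by -0.68 with 32 added to the linear values.

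Part of the NRF2 response list was higher in the heme crypt pool, and its median difference was smaller than in surface cells. Of 35 genes above the floor, 11 (31.4%) were higher, against 1.78% of all genes. None was lower and 32 were above 0, with a median of 0.76. In surface cells the same genes had a median of 1.57 and 27 were higher. The difference between the compartments was not tested. The labels do not say how many surface cells each crypt pool held, and their part in these crypt values was not tested. The summed linear level was 23510 in control and 35430 in heme crypt, against 29590 and 74410 in the surface pools.

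After Cbr3 (6.49 and 8.68), the highest differences in crypt cells were those of the malic enzyme gene Me1, at 5.72 and 7.81, the aldehyde dehydrogenase genes Aldh1a7 (5.95 and 7.85) and Aldh1a1 (7.50 and 9.10), and the glutathione transferase gene Gsta3 at 7.08 and 8.94. The cystine importer gene Slc7a11 was at 5.72 in control and 7.52 in heme crypt, and at 4.21 and 10.27 in the surface pools. Akr1b8 was at 7.72 and 9.45, the quinone reductase gene Nqo1 at 7.10 and 8.44, Srxn1 at 6.62 and 7.86 and Gclc, the catalytic subunit gene of glutathione synthesis, at 8.58 and 9.76. Another 4 probe sets were higher on heme by 2.16 to 2.74 and are not in these counts. They all list the same several symbols, which include glutathione transferase genes of this list. Gstm3 had a mean difference of 1.04 from probe sets at 0.88 and 1.21. Gsta3 was higher on heme by 1.86 in crypt and 1.57 in surface cells, whereas Nqo1 differed by 1.34 and 4.09 and Ptgr1 by 0.53 and 4.20. The genes of NRF2 itself and its inhibitor, Nfe2l2 (9.37 and 9.43) and Keap1 (7.74 and 7.94), had small differences.

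Genes of heme and iron handling had few large differences in crypt cells. Of 25 above the floor, 2 were higher and the median was 0.14. Hmox1 was at 5.31 and 7.12 in crypt and at 6.14 and 11.53 in surface cells, with its control crypt value below the floor. The part of surface cells in its heme crypt value was not tested. Tfrc, the transferrin receptor gene, was at 10.16 and 11.26. Of the ferritin chain genes, Ftl1 was at 10.56 and 11.08 and Fth1 at 12.01 and 11.85. The folate and heme transporter gene Slc46a1 was at 6.01 on both crypt arrays, and its surface difference was -2.94. Of the genes of heme synthesis, the rate-limiting Alas1 was at 8.65 and 9.05.

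Sterol and fatty acid synthesis genes were above 0 almost throughout. Each of 20 genes of cholesterol synthesis had a positive difference (median 0.55), and their summed linear level was 10540 in control and 15620 in heme crypt. Idi1 (9.40 and 10.42) was past the rule, followed by Nsdhl (8.17 and 9.15), Fdps (8.91 and 9.85) and Sqle (9.03 and 9.86). With ribosomal protein centring 6 were past it, and with 32 added to the linear values none. Of 16 fatty acid synthesis genes, 14 were above 0 and 2 were higher (median 0.36). Scd1 was at 7.25 and 9.47, and the desaturase gene Fads1 at 7.93 and 9.20, while its neighbour in the pathway, Fads2, was at 11.01 and 10.93. Fasn was at 9.48 and 10.34 and the regulator gene Srebf1 at 8.03 and 8.72. In the surface pools Scd1 was at 8.05 and 9.07 and Fads1 at 6.68 and 6.76. Genes of fatty acid oxidation under PPAR alpha had a crypt median of 0.03 over 16 genes with none past the rule, and a surface median of 0.77.

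Of the gasdermin family, 3 genes were above the floor in crypt cells and 5 below it. Gsdmc2 was at 10.84 in control crypt, 6.78 in heme crypt, 11.18 in control surface and 8.82 in heme surface cells. Gsdmc4 was at 10.07, 6.55, 10.65 and 9.89 in the same order. Both were therefore lowest in the heme crypt pool. Gsdmd, the gasdermin cut by inflammatory caspases, was at 7.89 and 7.25. Gsdmc was below the floor at 3.98 and 3.29, as were Gsdma, Gsdma2, Gsdma3 and Gsdme, and Gsdmc3 had no probe set of its own here. A probe set shared by several Gsdmc genes differed by -3.77 in crypt cells. The Gsdmc genes are close copies of each other, and whether their probe sets tell them apart was not checked. A family median is not meaningful here, since it was -3.52 over 3 genes and -0.45 with no floor.

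Genes of epithelial defence had large differences on both sides. Of 18 above the floor, 2 were higher, 6 were lower and the median was -0.22. Several members were put on this list because their values were already known to be low, so its counts are no independent evidence of a direction. Plet1, Ccl6 and Mptx1 were followed by the endothelin gene Edn1, at 6.81 and 5.05, the transglutaminase gene Tgm3 at 8.64 and 7.19 and the cytokine gene Il18 at 6.13 and 5.07. Plet1 was at 7.07 and 7.50 in the surface pools. On the heme side, the secreted phospholipase gene Pla2g2a was at 5.96 and 7.58 and the oxidase gene Nox1 at 9.62 and 10.81. The oxidase gene Duox2 was at 8.00 and 8.15 in crypt cells, while its surface difference was -2.81. Interferon and antigen presentation genes had a median of -0.40 over 8 genes with none past the rule. Many classical inflammation genes, among them Reg3b, Reg3g, Lcn2, Cxcl1 and Nos2, were below the floor.

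Conjugating enzymes and cytochromes differed by gene. The sulfotransferase genes Sult1a1 (10.34 and 8.47) and Sult1c2 (8.69 and 6.80) were lower, and in surface cells they were at 8.72 and 7.38, and 7.30 and 6.09. Of the other sulfotransferase genes of the list, Sult1d1 was at 8.48 and 8.14 and Sult1b1 at 6.87 and 7.01, and Sult2b1 differed by 0.52. The list median of -0.15 over 9 genes became 0.05 with ribosomal protein centring. Of 9 cytochrome P450 genes, Cyp2c65 (5.48 and 6.98) and Cyp4f14 (6.53 and 7.72) were higher, and the median was 0.18. Ion and water transport genes outside the colonocyte list had a median of -0.11 over 13 genes (0.10 with ribosomal protein centring) and none past the rule. Kcnma1 had a mean of 0.50, from probe sets at -0.72 (8.14 and 7.42) and 1.71 (4.24 and 5.95). The second had its control value below the floor, so the sign of the mean is uncertain.

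Signalling genes that could act on crypt cells had mostly small differences between the crypt pools. The 4 feedback inhibitors recalled for this study were at 5.80 and 5.48 for Il15, 8.10 and 8.07 for Ihh, 5.50 and 5.55 for Bmp2 and 5.36 and 5.29 for Wif1, the last 2 below the floor. In surface cells Il15 and Ihh, the 2 above the floor in crypt cells, were both lower on heme, with a median difference of -1.72. Of 12 genes of the BMP and hedgehog response, Bmp4 (7.79 and 6.61), a ligand gene expressed largely in stroma, was lower and the BMP target Id1 (7.46 and 8.48) was higher. Their median was -0.17, which became 0.04 with ribosomal protein centring, and neither gene passed the rule with 32 added to the linear values. All 7 genes above the floor on the EGF receptor signalling list were below 0, with a median of -0.34. The list holds ligand and receptor genes and also Errfi1, which is neither. Egf was at 6.66 and 5.77, the receptor genes Egfr at 8.51 and 8.08 and Erbb3 at 10.12 and 9.53, and the ligand gene Ereg was below the floor at 4.98 and 5.04. Immediate early genes had a median of 0.19 over 9 genes. The joint list of p53 targets and cell death genes had -0.07 over 12 (0.13 with ribosomal protein centring). Heat shock and unfolded protein genes had 0.10 over 11, and none of these 3 lists had a member past the rule.

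**Figure D4:**
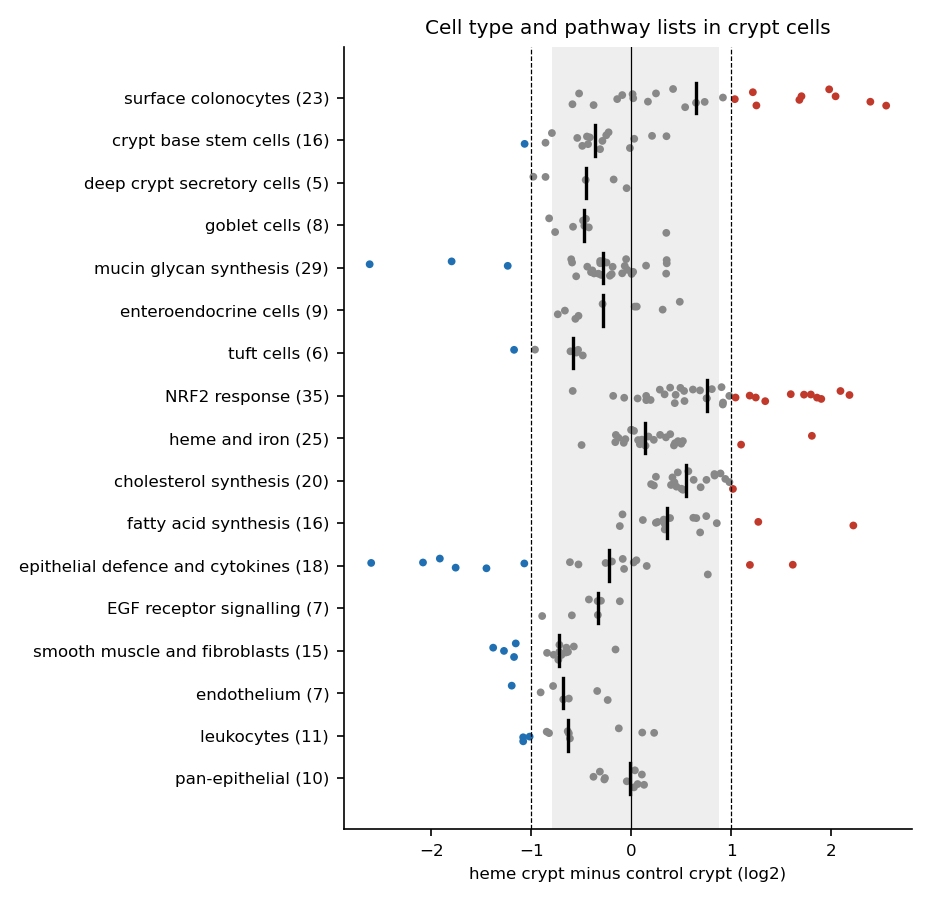
Difference between the heme and control crypt pools (log2) for each gene above the floor in 17 cell type and pathway lists, with the number of genes in brackets. Red and blue points are at least 2-fold higher and lower, black bars are list medians, and grey shading spans the central 95% of all genes, from -0.79 to 0.88; the medians run from -0.72 for smooth muscle and fibroblasts to 0.76 for the NRF2 response.

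The heme differences in crypt cells were set beside those in surface cells, which came from the same mice but from other arrays. Of the 187 genes higher in heme crypt cells, 41 were also higher in surface cells, which is 21.9% of the crypt genes and 11.0% of the 372 surface genes (3.62% of 10282). Of the 125 lower genes, 27 were also lower in surface cells, or 21.6% of them and 13.0% of the 207 lower surface genes (2.01%). No gene was higher in crypt and lower in surface cells. The gluconeogenesis gene Pck1 was the single gene on opposite sides, at 8.74 and 7.71 in crypt and at 8.60 and 9.67 in surface cells. Its crypt difference of -1.03 was short of the rule with 32 added to the linear values, at -0.93, and with ribosomal protein centring, at -0.83.

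The shared genes came mainly from outside the cell cycle. Of the 79 cell cycle genes higher in heme crypt cells, 4 were also higher in surface cells, namely Rrm2 (2.14 in surface cells), Ncapg2 (1.58), Mad2l1 (1.18) and Sgo2a (1.10). Of the 108 other genes higher in crypt cells, 37 were. Levels of the mitosis genes were low at the surface to start with, with a median level of 5.19 on control and 5.47 on heme, both below the floor. For the lists with large crypt medians the surface medians of the same genes were 0.14 for mitotic entry, 0.31 for kinetochore genes, 0.33 for spindle genes and -0.01 for recombination genes. The difference between the compartments was not tested.

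**Figure D5:**
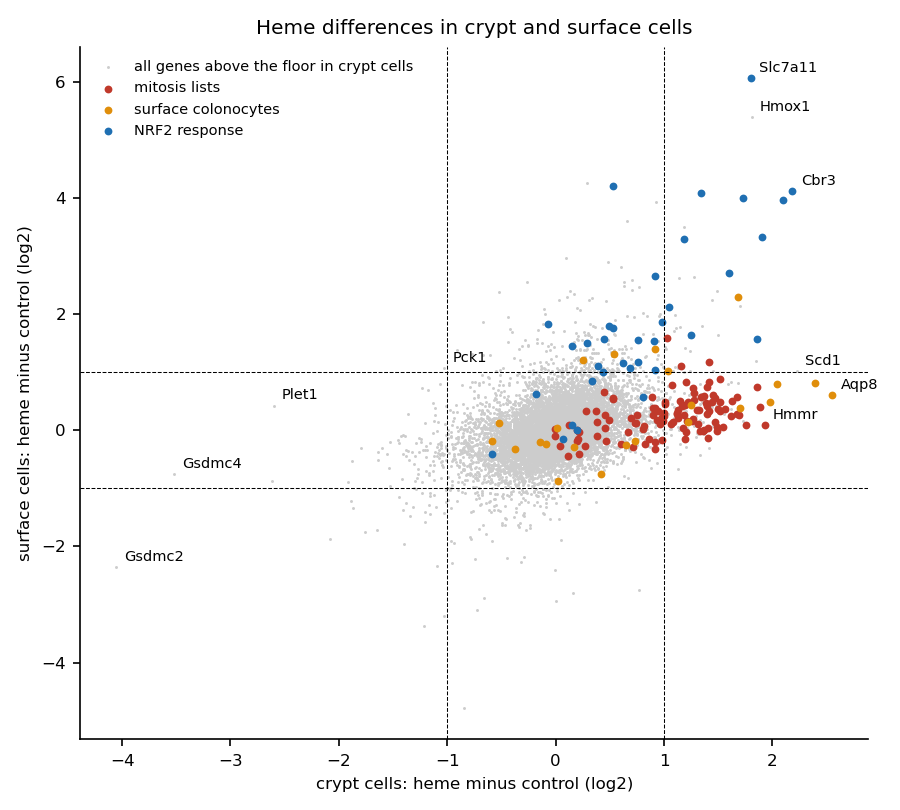
Heme minus control difference (log2) in crypt cells (horizontal axis) and surface cells (vertical axis) for each gene above the floor in crypt cells. Dashed lines mark 2-fold; mitosis genes (red) spread to the right near 0 on the surface axis, NRF2 genes (blue) spread upward to Slc7a11 at 1.80 and 6.05, and Gsdmc2 lies at -4.05 and -2.36.

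Of 300 microRNA genes with a probe set, 57 were above the floor in crypt cells, with a median of -0.08. Of these 57, 16 were above 0, against 51.5% of all genes, so most leaned to lower values. None was higher and 2 were lower, against 1.78% and 1.19% of all genes. Both of the lower ones belong to the miR-200 family, known for repressing ZEB factors and so keeping epithelial cells epithelial. They were named after their values were seen. A further 4 probe sets, each shared by a microRNA gene and another symbol, were also lower, with differences of -1.71 to -1.08. They fall into 2 pairs with the same other symbol, so they need not be 4 separate cases. Which gene these shared probe sets read cannot be told. Among the 57 genes, values below 0 were not limited to the miR-200 genes. Mir200a was at 7.58 in control crypt and 6.30 in heme crypt, and at 7.35 and 6.53 in the surface pools. Mir200b was at 7.39 and 6.24 in crypt and at 6.97 and 5.83 in surface cells. Both had heme values below their control values in both compartments, with differences of -1.28 and -0.83 for Mir200a in crypt and surface cells and of -1.16 and -1.14 for Mir200b. The Mir200b crypt difference was short of the rule with 32 added to the linear values, at -0.90, and with ribosomal protein centring, at -0.95. The probe sets are assigned to the microRNA genes, and which form of the RNA they read, precursor or mature, is not stated in the labels. The genes lie close together on chromosome 4 with Mir429, which had no value of its own here. The mature 3p sequences from RefSeq (GRCm38.p6, minus strand) are shown because they carry the family's targeting, with the seed, bases 2 to 8, in capitals. miR-200b and miR-429 share a seed, and that of miR-200a is another. They lie at chr4:156054911-156054932 for miR-200a, chr4:156055685-156055706 for miR-200b and chr4:156053916-156053937 for miR-429.
miR-200a-3p: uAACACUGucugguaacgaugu
miR-200b-3p: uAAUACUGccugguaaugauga
miR-429-3p: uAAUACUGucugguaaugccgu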

How the data were processed

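The deposited values are log2 expression per probe set, made by the authors with RMA (background correction, quantile normalization and probe summary), per the submitters' processing notes. Neither its version nor which arrays it took together is given in the sources used here. Of 35556 probe sets, 21789 had 1 gene symbol in the platform annotation, 1621 had several and 12146 had none. Symbols were updated to the GRCm38.p6 gene table for 21698, and probe sets of a gene were averaged, which gave 19938 genes. Probe set medians were 5.54 (control crypt), 5.46 (heme crypt), 5.52 (control surface) and 5.42 (heme surface), and the single array per pool limits the precision of every value.

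The heme minus control difference was taken in each compartment. A gene was counted when it differed at least 2-fold and its higher value reached the floor. Each group is 1 array, so no test was possible. The lists hold 773 genes in 44 lists, 43 of them without a single-symbol probe set, and the members and lists were chosen with earlier results of these data known. Named were the 15 largest differences each way (predicted genes, microRNA genes, receptor and immunoglobulin families left out). Also named were all gasdermins and feedback inhibitors, defining markers of cell types, and genes next to the limits. List members past 2-fold, and up to 8 with the largest differences of each list, were candidates. The text names only part of these. Other genes were named after their values were seen, to show a list's spread. The counting was run on simulated data with planted differences larger than the limit, which checks the code and not the calls in these data. Python 3.11.15, numpy 2.4.6, pandas 2.3.3 and matplotlib 3.10.9 were used, with limma 3.58.1 in R 4.3.3 for cyclic loess. Alternatives were no floor, a floor 1 unit higher, log2(2^value + 32), ribosomal protein centring, cyclic loess, the probe set with the highest mean, and a 3-fold limit.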

Additional observations from a re-analysis of the deposited data

Results flagged for a closer look

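Pck1, the gene of the enzyme that commits carbon to gluconeogenesis, differed in opposite directions in the compartments. Its heme minus control difference was -1.03 in crypt cells and 1.08 in surface cells. The crypt difference was short of 2-fold with 32 added to the linear values (-0.93) and with ribosomal protein centring (-0.83). With 1 array a group, this opposition was not tested.

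Probe sets not assigned to a single gene also held differences. Of 780 probe sets with several gene symbols and a crypt value above the floor, 6 were at least 2-fold higher and 12 lower in the heme crypt pool. Among the 10491 genes the counts were 187 higher (1.78%) and 125 lower (1.19%). Some of the 6 and 12 probe sets list the same symbols as each other, in part with identical values, so they are not all separate genes. The symbols of 4 of the higher ones include genes of the NRF2 list and are the same for each. Those of 1 other include a gene of the CDK inhibitor list. The symbols of 4 of the lower ones include a microRNA gene, and those of 1 several Gsdmc genes. Which of its genes such a probe set reads cannot be told. Of 4765 probe sets with no symbol above the floor, 36 were higher and 173 lower, so lower ones outnumbered higher ones, unlike among the genes. What the probe sets with no symbol measure is not given in the sources used here.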

How the results depend on the processing

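The main counts of 187 higher and 125 lower genes moved by more than 1.5 times under 3 alternatives. They were 106 and 52 with log2(2^value + 32), 328 and 59 with ribosomal protein centring, and 32 and 15 with a 3-fold limit. The other alternatives gave 163 to 211 higher and 99 to 139 lower genes. Of the list medians, the enteroendocrine median became 0.033 with no floor, and the tuft cell median -0.96 with a floor 1 unit higher, where 1 member was left. The gasdermin median became -0.45 with no floor, -3.14 with log2(2^value + 32) and -2.08 with the highest probe set. A set of 144 genes past the rule was followed, made of list members, the 15 largest each way, Pck1, Mir200a and Mir200b. Not all are named in the text. Of these 144, 96 remained past the rule with log2(2^value + 32), 131 with ribosomal protein centring, 141 with cyclic loess and 143 with the highest probe set. None changed sign. Differences of genes near the floor are therefore the least certain in size. No paired analysis was possible because each group is 1 pooled array, and no replicate could be left out. Variation between mice cannot be measured here.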

Other observations

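Of the 187 genes higher in heme crypt cells, 77 were on no list, and some shared a pathway. The genes named here were chosen after their values were seen, and no hypothesis was tested on them. The serine synthesis genes Phgdh and Psat1, which feed glycine, folate and nucleotide metabolism, were at 6.47 and 7.92, and at 6.05 and 7.18, in control and heme crypt. The Phgdh difference was 1.45 in crypt and 1.02 in surface cells, and that of Psat1 1.13 and 0.33. Replication-dependent histone genes were also among them, with H2bc3 at 6.47 and 8.15 and H2bc18 at 6.95 and 8.40. Histone genes have close copies, and whether their probe sets tell them apart was not checked. Ddias, a gene active in S phase and DNA damage, was at 5.28 and 7.01, with its control value below the floor.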
